A study of Mus musculus with 6 samples.

Results

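Cytosolic ribosomal protein genes were described in RNA from sorted tuft cells of the mouse ileum. They were taken from the TPM table as every gene whose symbol starts with Rpl, Rplp or Rps and a number, together with Rpsa, and without the Rps6k kinase genes, which gave 92 of the 23420 genes listed. The study examined how the taste receptor TAS1R3 affects intestinal tuft cells, and its sequencing asked which taste receptors ileal tuft cells express. There were 6 libraries in 1 group, each labelled as a mouse replicate, so every comparison here is between genes of the same library and none is between conditions. All libraries came from Gfi1b-eGFP/+ mice on C57BL/6J, which the methods give as 6 to 12 weeks old, and which carry a green fluorescent protein reporter at the locus of Gfi1b, a transcription factor gene that marks tuft cells in the epithelium. Live cells were sorted as GFP+ EpCam+ CD45-, and the methods describe SMART-Seq2 with 18 cycles of amplification, whereas the labels list a 3' polyA and a 10X preparation beside it.

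The cytosolic ribosome is built from a large and a small subunit, each a ribosomal RNA scaffold dressed with many small, mostly basic proteins. Nearly every one of these proteins is needed in a single copy per ribosome, and their mRNAs share a start of pyrimidine bases that couples their translation to growth signals. Most mammalian ribosomal protein genes have 1 active locus with introns and several intronless copies elsewhere in the genome, and a few have an active paralog, a related gene often marked by an l at the end of its symbol.

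Levels are given as TPM, a gene's share of all transcripts in its library after correction for length and scaling to 1 fixed total, so that levels of different genes can be set side by side within a library. Read numbers cannot be recovered from such values, and with the depth unknown no detection limit could be given. Between 13044 and 13308 genes were above 0 per library. Rn45s, the ribosomal RNA precursor, took 23.1% to 32.6% of TPM, and the predicted gene Gm20594 took 1.56% to 2.13% in replicates 1 to 3 and 5.18% to 5.64% in replicates 4 to 6. All 10 markers on the tuft cell list were above 0 in every library, with a summed level of 3645 to 6156 TPM. Markers of other epithelial cells were present as well, with 3560 to 21409 TPM for 6 Paneth cell genes, 7700 to 16261 TPM for 8 enterocyte genes and 1053 to 5118 TPM for 7 goblet cell genes. The part of these cells in the ribosomal protein levels was not tested.

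Of the 92 genes, 55 carried large-subunit and 37 small-subunit symbols. The set comprised 77 canonical genes, 46 of the large and 31 of the small subunit, together with 8 paralogs, 6 genes with a pseudogene symbol and Rps19bp1, which encodes a binding partner of the small-subunit protein Rps19 and no part of the ribosome. All of the canonical genes were above 0 in every library. Over the whole set, 89 of 92 genes were above 0 in every library, compared with 47.2% of all genes in the table. The remaining 3, the paralogs Rpl10l, Rpl39l and Rpl3l, were listed at 0 in every library, as were 32.9% of all genes.

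Several genes were nearly indistinguishable from another locus, which bears on how their levels can be read. The reads were aligned with a seed of 25 bases, and RSEM splits a read with more than 1 possible origin according to estimated transcript abundances. Coding sequences of the GENCODE M21 annotation on mouse build GRCm38 were therefore searched for 25-base stretches that also occur, base for base, in another gene of the table. The alignment allowed 1 mismatch, so reads common to genes without a shared stretch are not excluded. Of the 92 symbols, 91 were found in the annotation (Rplp2-ps1 was not), 55 shared no stretch with another gene and 20 shared at least 25% of their stretches. The following 90-base stretches are shown because the gene and its copy have almost the same sequence and both had levels above 0. Positions are counted from the first base of the coding sequence or, for intronless copies annotated as pseudogenes, from the first base of the transcript, and capitals mark the bases that differ.

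Rps27, which encodes a zinc-binding small-subunit protein, lies at chr3:90212522-90213651 on the minus strand, and Gm9846, which RefSeq now names Rps27rt, at chr9:114982366-114982739 on the minus strand. Their coding sequences were identical at 252 of 252 bases, and bases 1 to 90 are shown with no capitals because none differ.
Rps27: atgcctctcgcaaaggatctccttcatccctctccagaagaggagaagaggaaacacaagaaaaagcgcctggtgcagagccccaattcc
Gm9846: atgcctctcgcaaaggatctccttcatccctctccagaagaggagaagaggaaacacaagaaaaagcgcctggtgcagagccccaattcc
Rpl26, a large-subunit gene whose protein sits near the exit of the peptide tunnel, lies at chr11:68901583-68906989 on the plus strand, and the processed pseudogene Gm15772 at chr5:3236431-3236868 on the plus strand. They differed at 2 of 435 aligned bases, 1 of which falls within bases 132 to 221.
Rpl26: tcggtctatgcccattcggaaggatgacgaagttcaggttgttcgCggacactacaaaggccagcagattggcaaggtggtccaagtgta
Gm15772: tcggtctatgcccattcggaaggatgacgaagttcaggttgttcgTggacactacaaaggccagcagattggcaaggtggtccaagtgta
Rpl34 of the large subunit lies at chr3:130726831-130730398 on the minus strand, and the processed pseudogene Rpl34-ps1 at chr6:71124610-71124963 on the plus strand. They differed at 2 of 351 aligned bases, 1 of which falls within bases 87 to 176.
Rpl34: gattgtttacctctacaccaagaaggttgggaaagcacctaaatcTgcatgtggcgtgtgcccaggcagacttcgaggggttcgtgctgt
Rpl34-ps1: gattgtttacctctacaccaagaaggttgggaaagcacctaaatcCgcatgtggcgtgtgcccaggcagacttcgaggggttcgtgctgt
Rpl30, a further large-subunit gene, and the processed pseudogene Gm12191 differed at 1 of 345 aligned bases.

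The active paralogs were far less alike, which is shown by the same kind of stretch for the 3 paralogs with the highest means. Rpl22 (chr4:152325742-152334071, plus strand) and Rpl22l1 (chr3:28805436-28807424, plus strand) encode related RNA-binding proteins of the large subunit, and 74.2% of 299 aligned bases were identical. Bases 175 to 264 of Rpl22 are set against bases 157 to 246 of Rpl22l1.
Rpl22: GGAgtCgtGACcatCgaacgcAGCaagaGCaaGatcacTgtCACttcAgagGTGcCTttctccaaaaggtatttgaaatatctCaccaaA
Rpl22l1: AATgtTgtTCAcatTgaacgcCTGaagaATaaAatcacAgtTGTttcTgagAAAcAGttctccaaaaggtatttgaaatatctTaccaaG
Rpl36a (chrX:134585654-134588062, plus strand) and its autosomal paralog Rpl36al (chr12:69182731-69184083, minus strand) were identical at 87.7% of 318 bases, and bases 93 to 182 are shown.
Rpl36a: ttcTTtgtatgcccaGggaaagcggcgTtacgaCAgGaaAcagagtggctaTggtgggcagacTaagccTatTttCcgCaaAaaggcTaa
Rpl36al: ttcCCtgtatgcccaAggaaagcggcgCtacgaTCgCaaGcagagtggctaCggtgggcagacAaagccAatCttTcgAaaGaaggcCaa
Rps27 and Rps27l (chr9:66946086-66949516, plus strand), a paralog known as a target of the tumour suppressor p53, were identical at 76.2% of 252 bases, and bases 3 to 92 are shown.
Rps27: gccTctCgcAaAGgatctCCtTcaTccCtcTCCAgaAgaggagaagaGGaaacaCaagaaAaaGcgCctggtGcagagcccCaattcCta
Rps27l: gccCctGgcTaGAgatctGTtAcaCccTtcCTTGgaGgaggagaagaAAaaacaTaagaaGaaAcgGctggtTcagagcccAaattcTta
Neither Rpl36al nor Rps27l shared a 25-base coding stretch with its parent. Rpl22 and Rpl22l1 have the run without capitals in the stretch above in common, and Rpl22 shared 0.556% of its coding stretches with any other gene.

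The ribosomal protein genes were among the most abundant transcripts. Their summed level was 4.99%, 6.32%, 8.89%, 5.79%, 6.38% and 6.39% of TPM in replicates 1 to 6, a mean of 6.46% ± 1.30 (SD, n = 6). Replicate 3 was the highest and replicate 1 the lowest, and the other 4 libraries lay between 5.79% and 6.39%. With Rn45s and Gm20594 left out of the total, the shares were 6.87%, 8.64%, 11.8%, 8.52%, 10.2% and 10.3%, a mean of 9.39% ± 1.73, and the same libraries were highest and lowest. Fau and Gnb2l1 encode cytosolic ribosomal proteins under other symbols. Fau, a ubiquitin-like fusion to a small-subunit protein, was at 1368 to 1566 TPM, and Gnb2l1, which encodes the small-subunit scaffold protein RACK1, at 549.3 to 993.3 TPM. Both were highest in replicate 3.

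The canonical genes covered a narrow range with a few exceptions. The median of their mean levels was 764.5 TPM, with quartiles at 555.5 and 1011 TPM, whereas the median over all genes above 0 in every library was 15.1 TPM. Of the 77 canonical genes, 61 averaged 500 TPM or more and 20 averaged 1000 TPM or more, and 72 ranked among the 500 most abundant genes of the table. The median level was 752.5 TPM for the large subunit and 892.4 TPM for the small. Within libraries, the median of the large-subunit genes divided by that of the small-subunit genes was 0.853, 0.905, 0.857, 0.919, 0.864 and 0.772, so the small-subunit median was the higher in all 6. The ratio of the summed levels was 1.30 ± 0.0395, as the large subunit has more genes.

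**Figure D1:**
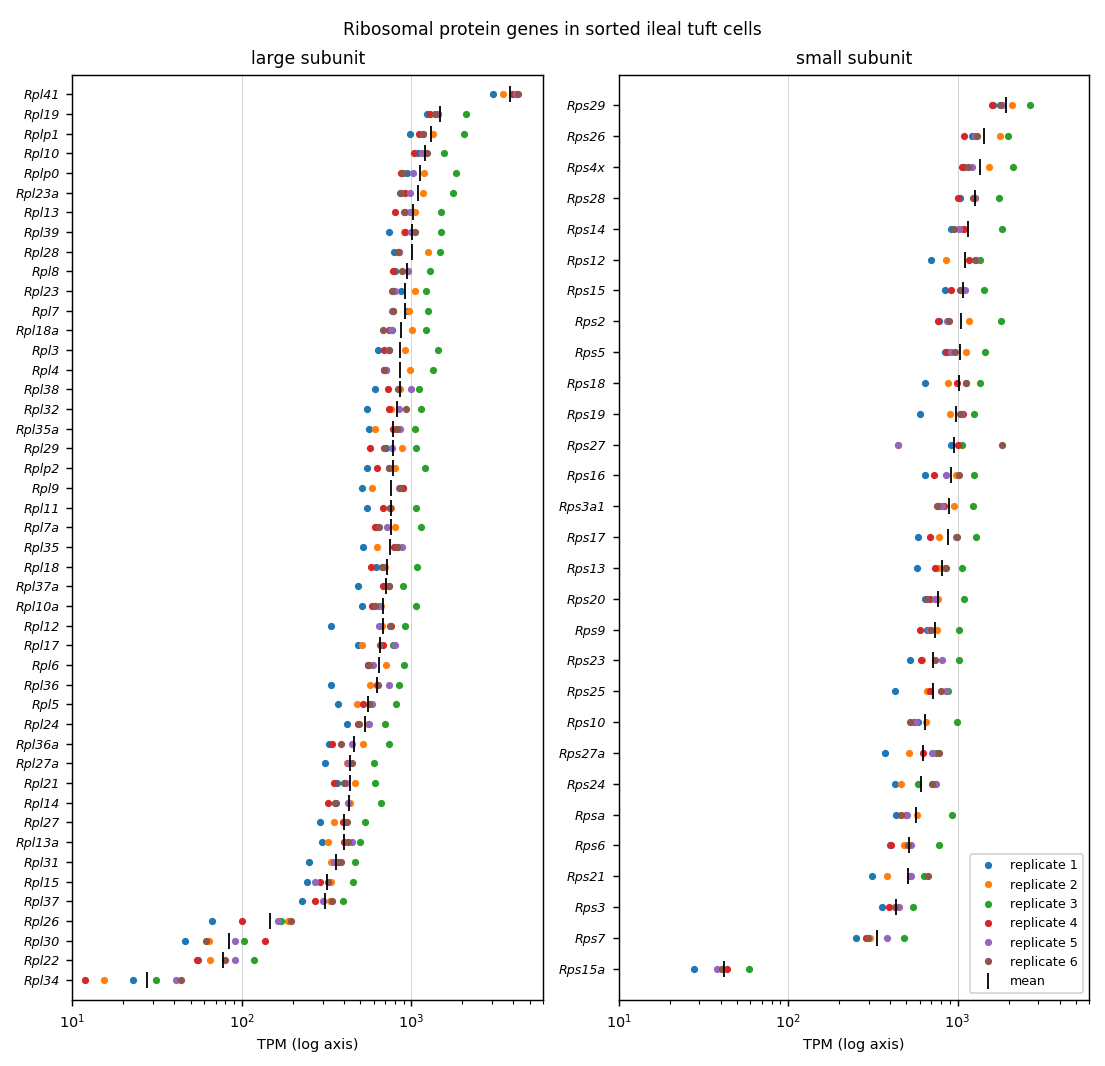
TPM (log axis) of 75 of the 77 canonical ribosomal protein genes, ordered by their mean, for the large subunit (left) and the small subunit (right). Points are the 6 libraries and black bars the means, and most genes lie near 764.5 TPM, with Rpl41 alone at the top and Rpl34, Rps15a, Rpl22, Rpl30 and Rpl26 apart at the bottom.

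Rpl41, which encodes a very short and highly basic peptide of the large subunit, was the most abundant canonical gene in every library. Its level was 3035, 3473, 4146, 3938, 4176 and 4265 TPM in replicates 1 to 6. Replicates 3 to 6 were close to each other, and replicates 1 and 2 lay below them. The next was Rps29, a zinc-binding small-subunit gene, with 1620, 2094, 2674, 1592, 1820 and 1777 TPM, so the lowest library of Rpl41 was above the highest of Rps29. Rpl19 (1478 ± 310.1 TPM), Rps26 (1441 ± 348.1), Rps4x (1364 ± 408.0), Rplp1 (1308 ± 386.0), Rps28 (1264 ± 270.1) and Rpl10 (1210 ± 183.7) followed. Neighbouring means in this order differed by less than their SDs, although within libraries Rpl19 was above Rplp1, Rps28 and Rpl10 in 6 of 6, as Rps26 was above Rps28 and Rpl10. Rpl10 protein joins the large subunit late in its assembly, and Rps26 and Rps28 proteins line the path by which mRNA leaves the small subunit.

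The lowest canonical genes were Rpl34 (27.7 ± 13.3 TPM), Rps15a (41.8 ± 10.2), Rpl22 (77.1 ± 24.5), Rpl30 (83.6 ± 33.0), Rpl26 (147.4 ± 51.6), Rpl37 (311.1 ± 59.3), Rpl15 (319.1 ± 73.9) and Rps7 (334.4 ± 85.0). Of the lowest 5, 4 had a near-identical copy elsewhere in the table, and Rpl22 was the exception. Rpl34 was at 22.9, 15.3, 31.0, 11.9, 41.2 and 44.1 TPM, whereas Rpl34-ps1 was at 482.9, 563.9, 769.3, 709.0, 947.9 and 847.7 TPM. The copy held 95.1% to 98.4% of the sum of both. The same order was seen for Rpl30, with 46.3, 63.9, 102.7, 136.3, 90.9 and 61.6 TPM, against 696.7, 776.4, 998.9, 671.4, 802.0 and 676.2 TPM for Gm12191. Rpl26 was at 67.2, 187.3, 170.4, 100.9, 163.0 and 195.7 TPM, and Gm15772 was at 760.7, 948.4, 1310, 913.6, 1095 and 870.5 TPM. In all 3 pairs the intronless copy was above the gene with introns in 6 of 6 libraries. Summed with its copy, Rpl34 reached 747.8 ± 184.1 TPM, Rpl30 853.9 ± 134.9 TPM and Rpl26 1130 ± 222.7 TPM, the first and second of these sums lying within the quartiles of the canonical genes and that of Rpl26 above them. Within the coding sequence, only the stretches that hold a differing base separate the loci, whereas 61.4% of the stretches of the whole Rpl34 transcript, 54.8% for Rpl30 and 72.5% for Rpl26 occurred in the copy. How the reads of each sum were divided was not tested.

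**Figure D2:**
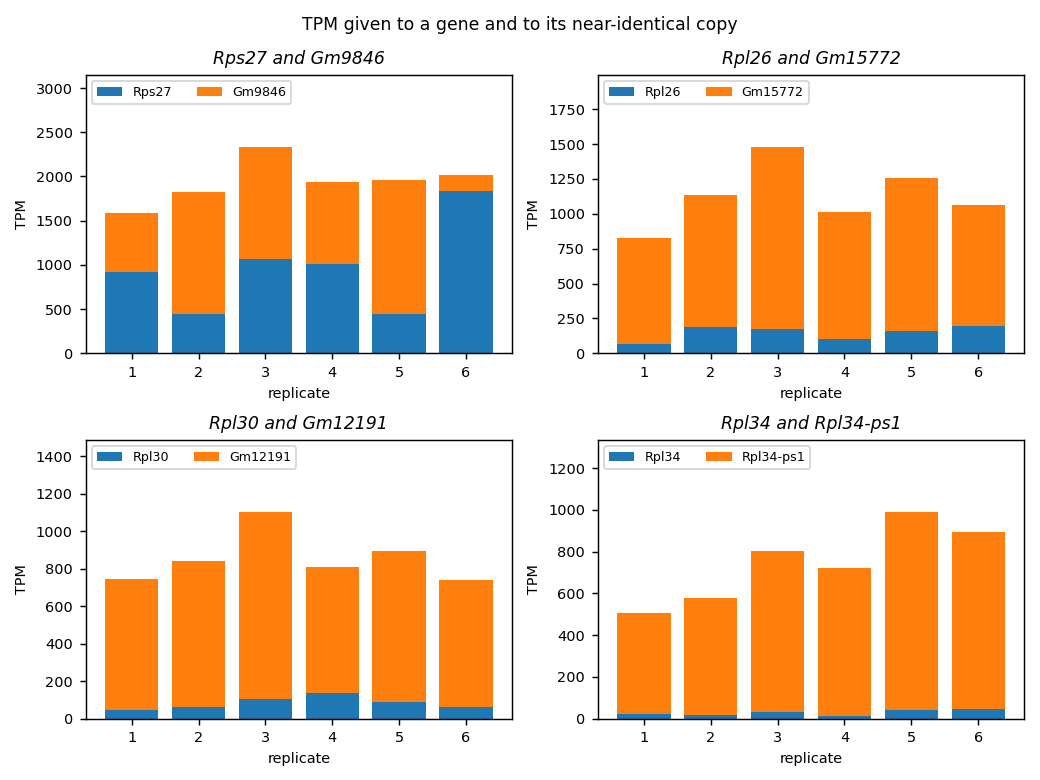
TPM in each of the 6 libraries for 4 canonical genes (blue) stacked with a near-identical copy (orange). The split between Rps27 and Gm9846 moved between 22.8% and 90.8% for Rps27 while the stack had a CV of 0.127, and the copy was the larger part of the stack in every library for Rpl26, Rpl30 and Rpl34.

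Rps27 showed the least stable division. It was at 916.2, 446.7, 1065, 1011, 445.8 and 1836 TPM in replicates 1 to 6, and Gm9846 was at 665.2, 1383, 1271, 926.6, 1509 and 185.6 TPM. Rps27 was the lower of both in replicates 2, 3 and 5 and the higher in replicates 1, 4 and 6. The coefficient of variation (CV, the SD divided by the mean over libraries) was 0.537 for Rps27 and 0.507 for Gm9846, and 0.127 for their sum, which was 1944 ± 246.8 TPM. The sums of the other 3 pairs consisted mostly of the copy and had about its CV, namely 0.246 for Rpl34 with Rpl34-ps1 (0.242 for the copy alone), 0.158 for Rpl30 with Gm12191 (0.162) and 0.197 for Rpl26 with Gm15772 (0.197). The sums and the search for copies were chosen after the table had been seen.

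The remaining copies outside the symbol rule had lower levels than the gene they resemble in every library. Rplp2 shared 84.4% of its stretches with a transcript of Wdr89, which had a mean of 0.0767 TPM. Rpl22l1 shared 90.1% with Gm15421 (2.70 ± 2.06 TPM) and Rps26 shared 58.3% with Gm6654 (8.26 ± 4.05 TPM). Rpl37 shared 90.6% with Gm13826, which was at 33.7 to 75.8 TPM, below Rpl37 in every library. Of the 11 genes outside the symbol rule that shared at least 25% of the stretches of a ribosomal protein gene, 7 had a mean under 15 TPM.

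Use of paralogs was measured by setting each against its parent gene within every library. Differences in log2(TPM + 1) were taken for 16 pairs. These were 7 paralogs and 6 pseudogene symbols with their parents, Rps4y2 with Rps4x, and 2 pairs of genes whose proteins work together. Of the 16 pairs, 15 had the same gene higher in 6 of 6 libraries. Each of these 15 reached p = 0.03125 in an exact permutation test (two-sided, flipping the sign of each library's difference), the smallest p that 6 libraries allow, and 0.0333 after Benjamini-Hochberg adjustment over the 16 pairs. Because any pair with 1 order in all libraries reaches this value, the sizes of the differences carry the information. For Rpl10l, Rpl39l and Rpl3l the order was fixed by values of 0 in every library, so their tests add nothing. Rps4y2 with Rps4x was added after the table had been seen. The share of other gene pairs of the table with 1 order was not computed.

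Rpl22l1 was above Rpl22 in every library. Rpl22 was at 55.0, 65.0, 117.6, 54.1, 90.7 and 80.0 TPM, and Rpl22l1 was at 153.4, 137.1, 270.0, 246.8, 271.3 and 363.7 TPM. The groups of values did not overlap, and the ratio of Rpl22l1 to Rpl22 ran from 2.11 in replicate 2 to 4.56 in replicate 4. On the log2(TPM + 1) scale the difference was 1.61 ± 0.47 (SD, n = 6), and Rpl22l1 made up 75.0% ± 5.99 of the sum of both. No gene of the table shared at least 25% of the 25-base stretches of Rpl22, unlike those of Rpl34, Rps15a, Rpl30 and Rpl26.

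Rpl36al exceeded Rpl36a by less. Rpl36a was at 326.6, 517.1, 743.6, 341.8, 445.4 and 384.6 TPM, and Rpl36al at 597.6, 651.3, 894.0, 626.2, 661.5 and 630.9 TPM. Ranges of the genes overlapped across libraries, but within each library Rpl36al was the higher, at 54.6% to 64.7% of the sum of both, a difference of 0.60 ± 0.26 in log2(TPM + 1). The share of Rpl36al was lowest in replicate 3, in which Rpl36a was at its highest. Rpl36al also varied less between libraries, with a CV of 0.160, compared with 0.339 for Rpl36a.

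Rps27l was below Rps27 in every library, at 207.2, 203.9, 322.4, 359.8, 393.1 and 381.7 TPM. The ratio varied from 0.208 to 0.882, and the difference was -1.49 ± 0.76. Set against the sum of Rps27 and its identical copy Gm9846, the ratio was 0.131, 0.111, 0.138, 0.186, 0.201 and 0.189, a narrower range, and Rps27l was 13.7% ± 2.77 of the 3 genes together. All 3 of replicates 4 to 6 were above all 3 of replicates 1 to 3 in this ratio.

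**Figure D3:**
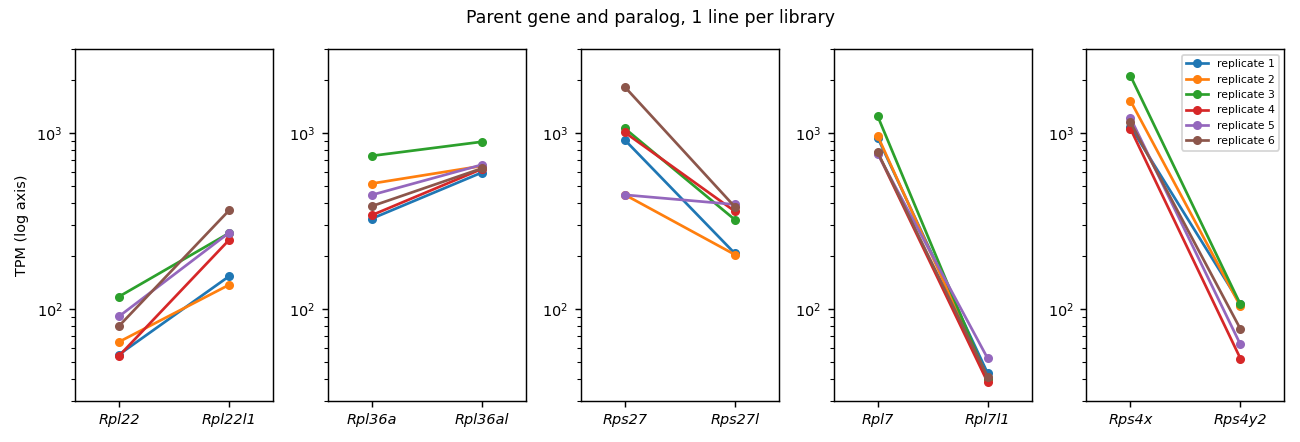
TPM (log axis) of 5 parent genes (left of each panel) and their paralogs (right), with 1 line per library. Lines rise to Rpl22l1 and Rpl36al in all 6 libraries and fall to Rps27l, Rpl7l1 and Rps4y2 in all 6.

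The remaining paralogs were minor or absent. Rpl7l1, an Rpl7-like gene, was at 38.3 to 52.4 TPM, 3.07% to 6.41% of its sum with Rpl7, a difference of -4.38 ± 0.37 in log2(TPM + 1). Its level was the most even of the 89 genes above 0, with a CV of 0.120, and replicate 5 was the highest. Rps4y2, which RefSeq names Rps4l, is classed by GENCODE M21 as a transcribed processed pseudogene and was counted here with the paralogs by its symbol. It was at 106.8, 103.5, 106.1, 52.2, 62.8 and 76.8 TPM, 4.69% to 8.92% of its sum with the X-linked gene Rps4x. This pair was added after the table had been seen, and its difference was -4.00 ± 0.38. Rpl10l and Rpl39l, known from testis, and Rpl3l, known from heart and skeletal muscle, were listed at 0 in all 6 libraries, while their parents Rpl10, Rpl39 and Rpl3 had means of 1210, 1017 and 859.5 TPM. No ratio was computed against a gene listed at 0. Rpl10l and Rpl3l shared no 25-base coding stretch with another gene, and Rpl39l shared 10.9% of its stretches with Rpl39.

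Of the 6 pseudogene symbols, Rpl34-ps1 (4.76 ± 0.59) and Rps15a-ps6 (0.53 ± 0.15) were above their parents in log2(TPM + 1). Rpl31-ps12 (-1.89 ± 0.19), Rplp2-ps1 (-5.30 ± 0.59) and Rps19-ps3 (-8.44 ± 0.93) were below them. Rps15a-ps4 was the only pair without 1 order, being below Rps15a in 4 of 6 libraries (-0.45 ± 0.48; exact sign-flip permutation test, p = 0.125, also after adjustment). Rps15a, Rps15a-ps4 and Rps15a-ps6 together reached 135.2 ± 38.3 TPM, which was still below the first quartile of the canonical genes. All of these values are uncertain where the copy shares most of its stretches with the parent, as 73.8% of those of Rps15a were shared with Rps15a-ps6.

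Genes whose proteins work together were compared in the same way. Rplp0, Rplp1 and Rplp2 encode the stalk of the large subunit, to which elongation factors bind, and in which the products of Rplp1 and Rplp2 form dimers. Rplp1 was at 987.1, 1344, 2060, 1112, 1173 and 1171 TPM, and Rplp2 at 549.9, 803.0, 1213, 624.6, 735.9 and 743.2 TPM. The ratio stayed between 1.58 and 1.80, a difference of 0.75 ± 0.078 in log2(TPM + 1), the smallest SD of the 16 pairs. Both genes were lowest in replicate 1 and highest in replicate 3. Rplp0, the base of the stalk, was at 872.8 to 1825 TPM. Rpl5 and Rpl11, whose products bind 5S ribosomal RNA together, differed by -0.47 ± 0.12, with Rpl5 at 0.629 to 0.778 times Rpl11.

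Levels kept their order between libraries. Spearman's coefficient over the 89 genes above 0 was 0.956 to 0.976 for the 3 pairs of libraries among replicates 1 to 3, 0.937 to 0.964 for the 3 pairs among replicates 4 to 6, and 0.868 to 0.909 for the 9 pairs across these sets. These coefficients are across genes, which are not independent replicates. The sets also differed in Gm20594, as given above. Canonical genes with coding sequences of at least the median length of 456 bases (39 genes) had a median level 1.11, 1.03, 1.00, 0.936, 0.889 and 0.851 times that of the 38 shorter genes in replicates 1 to 6. Thus the median of the longer genes was the higher or equal in replicates 1 to 3 and the lower in replicates 4 to 6. Over all canonical genes the relation was weak. Spearman's coefficient of level with coding length was 0.109, 0.113, 0.0937, -0.0853, -0.0770 and -0.133 in replicates 1 to 6. These sets of libraries are not given by the labels and were not set in advance. The part of library preparation in the difference between the sets was not tested, and the labels give no date or batch.

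**Figure D4:**
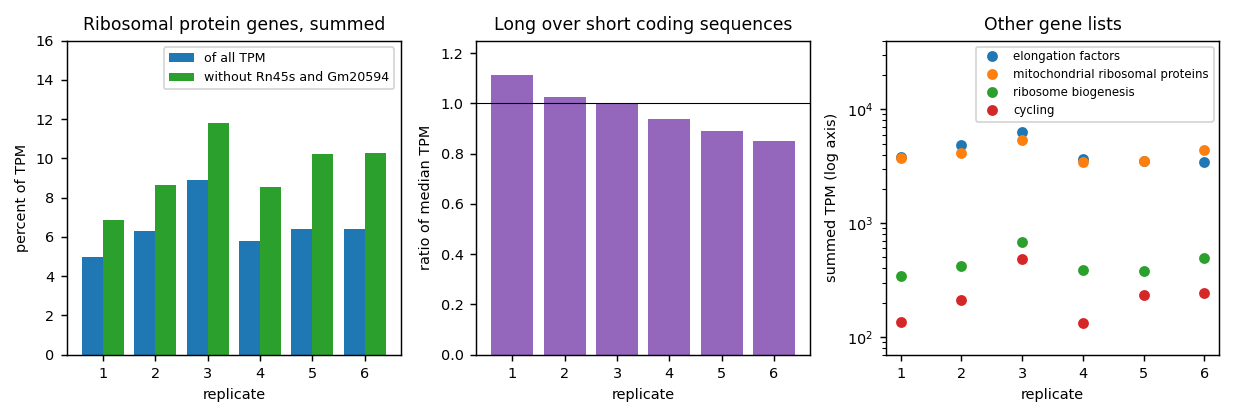
Left, summed TPM of the 92 ribosomal protein genes as a percent of all TPM and of TPM without Rn45s and Gm20594, by replicate. Middle, median TPM of the longer divided by that of the shorter canonical coding sequences, with a line at 1; right, summed TPM (log axis) of 4 other gene lists, and in all but the middle panel replicate 3 is the highest.

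Replicate 3 was the highest library for most ribosomal protein genes. Of the 82 that averaged 50 TPM or more, 67 (81.7%) were highest in replicate 3, compared with 35.9% of the 2081 genes of the table at that level, and 55 (67.1%) were lowest in replicate 1, compared with 13.4%. With libraries rescaled by median-of-ratios factors the counts were 62 and 69, against 30.8% and 16.7% of all 2081 genes. Without Rn45s and Gm20594 they were 58 and 70, against 26.9% and 17.9%. In 19 of the 82, replicate 3 stood apart from the other libraries by Dixon's ratio, and 8.65% of the 2081 genes had any such library. Rps14 was at 921.3, 1061, 1828, 1099, 1019 and 949.3 TPM, and Rpsa, also known as the laminin receptor gene, at 434.3, 575.4, 927.8, 499.8, 501.9 and 464.5 TPM. In both, the other 5 libraries lay close together and replicate 3 lay far above them.

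On the deposited TPM scale, the summed levels of other parts of the translation machinery were also highest in replicate 3. So were 35.9% of the 2081 genes averaging 50 TPM or more. This library had the lowest shares of Rn45s (23.1%) and Gm20594 (1.56%), and the sums below were not rescaled. The 6 elongation factor genes summed to 3814, 4839, 6330, 3636, 3532 and 3454 TPM, and 12 ribosome biogenesis genes to 340.6, 421.9, 683.1, 383.5, 378.8 and 489.2 TPM. Of the biogenesis genes, Dkc1 was highest in replicate 5, and Gar1, Bop1 and Pes1 were highest in replicate 6. The 10 other genes whose mRNAs are known to start with a pyrimidine tract were at 3007 to 4771 TPM, and the 76 mitochondrial ribosomal protein genes at 3471 to 5323 TPM, with replicate 3 the highest in both. The 6 cycling cell genes summed to 135.9, 211.3, 488.2, 131.3, 233.3 and 244.3 TPM, and were above 0 in every library. Top2a, Ccnb1, Cdk1, Birc5 and Ube2c were each highest in replicate 3. Mki67 was not, at 16.9 TPM in replicate 3 against 27.1 TPM in replicate 5 and 23.7 TPM in replicate 6. The tuft cell list was at 3724 TPM in replicate 3, towards the lower end of its range, and the enterocyte list was at its lowest there, at 7700 TPM. The part of cycling or other cells in the high values of replicate 3 was not tested, and more cells of a type and more RNA per cell cannot be told apart in bulk samples.

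The spread of the ribosomal protein genes across libraries was set against that of all genes averaging 50 TPM or more, without matching their levels. The median CV of the 89 genes above 0 in every library was 0.241, and it was 0.156 when replicate 3 was left out. In this range the median was 0.239 for the 82 ribosomal protein genes and 0.252 for all 2081, and 50 of the 82 were below the latter, as are 50% of all 2081 genes by construction. With median-of-ratios rescaling the medians were 0.239 and 0.227, and without Rn45s and Gm20594 they were 0.233 and 0.229, so which was the smaller depended on the scaling. Without replicate 3 they were 0.152 and 0.226.

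**Figure D5:**
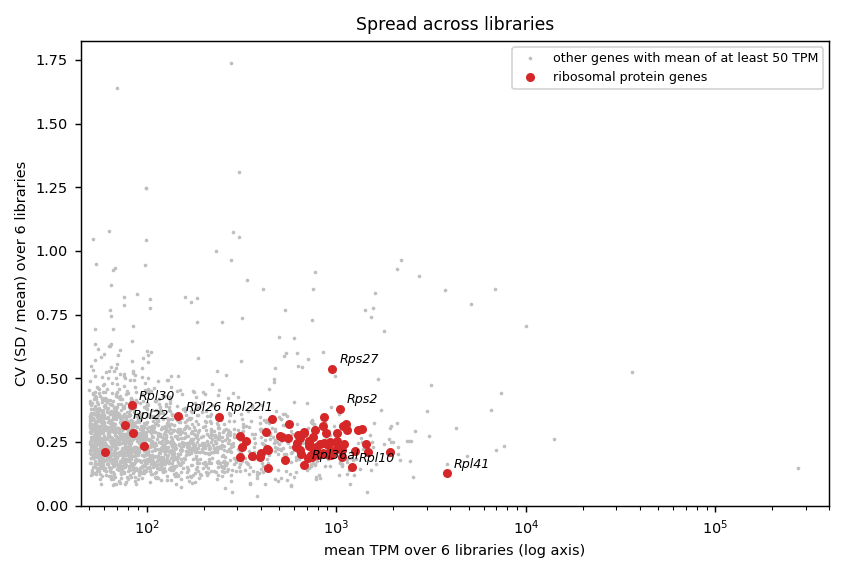
CV over the 6 libraries against mean TPM (log axis) for the 2081 genes averaging 50 TPM or more, with the 82 ribosomal protein genes in red. Most red points lie within the grey cloud, Rpl41 has the lowest CV of the canonical genes (0.127) and Rps27 the highest (0.537).

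The most even canonical genes were Rpl41 (CV 0.127), Rps3 (0.146), Rpl10 (0.152), Rpl24 (0.178) and Rpl37a (0.187), and the least even Rps27 (0.537), Rpl34 (0.480), Rpl30 (0.395), Rps2 (0.380) and Rpl26 (0.350). Rps3 protein lines the entry of the mRNA channel, and Rpl24 protein forms a bridge between the subunits. Of the least even 5, Rps2 shared 37.1% of its stretches with Gm10653, which had a mean of 1.04 TPM. The other 4 each have a near-identical copy that averaged 720.1 TPM or more. Rps15a (CV 0.244), Rpl31 (0.196) and Rpl37 (0.190) also have a near-identical copy, at a lower level, and were more even. Rps2 was at 781.3, 1166, 1805, 765.8, 872.2 and 891.9 TPM, with replicate 3 the highest.

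When each gene was expressed as a share of the summed ribosomal protein TPM of its library, the median CV was 0.128. Rpl11 (0.0314), Rps15 (0.0399) and Rpl19 (0.0506) were among the 5 genes with the most even shares, and the least even shares were those of Rps27 (0.547), Rpl34 (0.471), Rpl30 (0.416), Rpl26 (0.309) and Rps24 (0.260). Rps24, a small-subunit gene, was at 429.5, 465.8, 585.6, 739.4, 746.1 and 709.2 TPM, so replicates 4 to 6 were all above replicates 1 to 3. The median CV of the share was 0.150 for the 14 canonical genes with at least 25% of their 25-base stretches in 1 other gene. It was 0.101 for the 63 other canonical genes. The 14 include genes that are not near-identical to the other gene, such as Rpl36a, with 32.3% of its stretches in Gm6525. These shares were computed after the table had been seen.

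Promoter sequences from RefSeq, from 250 bases before to 50 after the start, were matched for 57 of the 77 canonical genes. A gene was counted if any of its promoter sequences held the letters. The letters CTTTCC, 1 form of a pyrimidine tract, occurred on the sense strand within 50 bases of the start in 18 of 57 (31.6%). The share was 5.43% over all 27025 genes with a promoter sequence. The letters CCGGAAG, a form of the ETS factor motif, occurred on either strand in 24 of 57 (42.1%), compared with 9.93%. The letters TATAAA occurred on either strand in 6 of 57 (10.5%), compared with 15.7%. These matches describe the sequence and were not related to the levels.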

How the data were processed

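RNA-sequencing data from 6 libraries of sorted ileal tuft cells were used. The authors ran Bowtie on the paired-end reads against mouse transcripts of UCSC build mm10 (seed of 25 bases, 1 mismatch, up to 15 alignments) and used RSEM to obtain the deposited TPM values. Each library sums to 1000000, so sequencing depth is unknown and no count model was run. The authors' transcript models were not used here. No source used here gives the strand setting.

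The members and all gene lists were chosen with earlier results of these data known. Genes named are those at 0, paralogs and their parents, the 8 highest and 8 lowest canonical means, the 5 highest and 5 lowest CVs, genes with a library standing apart, and partner pairs. Pairs were tested on log2(TPM + 1), pseudocount 1, with no filter on low values, by an exact permutation test (two-sided, sign flips over 64 assignments) with Benjamini-Hochberg adjustment. Replicates are mouse replicates per the labels. Alternatives were pseudocounts of 0.1 and 0.01, a filter at 0.1 TPM, 2 rescalings, an exact Mann-Whitney test and leaving out each library.

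Sequence sharing used GENCODE M21 on GRCm38, matched by symbol for 23030 table genes. Stretches came from 1 transcript per ribosomal protein gene. They were searched for in all RefSeq-linked transcripts of the other genes, or in all transcripts of a gene without such a link. The statistics were tested on simulated data. A few genes and sequences are counted but not reported here. Python 3.11.15, numpy 2.4.6, pandas 2.3.3, scipy 1.17.1, biopython 1.88 and matplotlib 3.10.9 were used.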

Additional observations from a re-analysis of the deposited data

Results flagged for a closer look

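In groups of 6 libraries, a value was noted when the gap between the highest or lowest library and its nearest neighbour exceeded, as a part of the whole range, the 95% critical value of Dixon's ratio. Of 107 measures screened, 22 exceeded it, and chance gives about 1 in 20, here 5.35. The share was higher over the table in these libraries, at 8.65% of the 2081 genes averaging 50 TPM or more. The libraries share their scale and the genes moved together, so the 22 are not independent.

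Replicate 3 stood above the other libraries for 19 ribosomal protein genes. Of these, 18 are listed. Large-subunit genes were Rpl36al (ratio 0.784), Rpl18 (0.768), Rpl19 (0.768), Rpl10a (0.724), Rplp0 (0.676), Rplp1 (0.667), Rpl14 (0.666), Rpl8 (0.665), Rpl3 (0.646), Rpl7a (0.639), Rpl23a (0.638) and Rpl13 (0.629). Small-subunit genes were Rps14 (0.804), Rps10 (0.728), Rps20 (0.728), Rpsa (0.714), Rps6 (0.663) and Rps28 (0.652). The summed share of all 92 genes had a ratio of 0.641, also with replicate 3 high.

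Rpl7l1 stood apart in replicate 5, at 52.4 TPM against 38.3 to 43.1 TPM in the other libraries (0.657). The share of Rps19-ps3 in its sum with Rps19 stood apart in replicate 1, at 0.781% against 0.0551% to 0.207% (0.791), where Rps19-ps3 was at 4.74 TPM and at most 2.16 TPM elsewhere.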

How the results depend on the processing

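No paired analysis was possible because there is 1 group, so no groups share replicate numbers. The sign-flip test pairs genes of the same library. The summed share of TPM moved from 6.46% to 9.39% without Rn45s and Gm20594, as this removes part of the total, and was 5.98% to 6.75% when 1 library was left out. The large to small subunit ratio moved from 0.862 to 1.30 with sums in place of medians, as the large subunit has more genes, and was 0.850 to 0.880 when 1 library was left out. The median CV moved from 0.241 to 0.128 for shares among the ribosomal protein genes, an alternative chosen after the data were seen, and was 0.156 to 0.262 when 1 library was left out, with the lowest value without replicate 3. The number of genes above 0 in every library was 89 whichever library was left out, and 88 with a minimum of 1 TPM. Leaving out a library could not change the 89, as the remaining 3 genes were at 0 in every library. The number of pairs with 1 order in all libraries was 15 in the alternatives run. A pseudocount or a rescaling of whole libraries cannot change which gene of a pair is higher. Leaving out 1 library cannot break an order held in all of them, so this count could not fall and does not measure stability. By the exact Mann-Whitney test without pairing, Rpl5 and Rpl11 no longer passed (two-sided exact p = 0.0931, 0.0993 adjusted). Across libraries Rpl5 ran from 370.1 to 812.2 TPM and Rpl11 from 551.2 to 1065 TPM, so their ranges overlapped. The cause was not tested. Leaving out 1 library leaves a sign-flip test that cannot pass 0.05, so only directions were compared there. Unknown depth limits what a value of 0 means, and values of near-identical copies depend on how reads were divided.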
